A study of Mus musculus with 20 samples.

Results

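The genes described here were 32 members of the ATF4 response and of the tRNA synthetase family, measured by bulk RNA-seq in mouse dendritic cells grown from bone marrow (BMDCs) and treated with the bromodomain inhibitor I-BET151 (iBET). They were chosen by name, from the integrated stress response, amino acid synthesis and the aminoacyl-tRNA synthetases, and all 32 were among the 24421 genes listed. For the text they were sorted by role into 10 stress response factors and regulators, 9 enzymes of amino acid and one-carbon metabolism, and 13 cytosolic tRNA synthetases. All 32 passed the filter on low counts that left 12465 genes for testing.

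Bone marrow from 5 mice, A to E, was grown with GM-CSF at 40 ng/mL for 8 days, and the cells of each mouse were divided over 4 conditions, so that 20 libraries were made. In DMSO Ova, cells received ovalbumin with 5% DMSO, and in DMSO IC they received ovalbumin bound by IgG as immune complexes (IC) with 5% DMSO. In iBET Ova and iBET IC, ovalbumin or the immune complexes were given with iBET at 3.3 µM, and the labels give no DMSO content for these groups. The study's methods prepare the iBET stock in DMSO. If the DMSO content of these groups differed from 5%, its effect could not be told apart from that of iBET. Stimulation lasted 4 h. According to the labels iBET and the stimulus were added at the same time, whereas the study's methods place iBET before the stimulus. All groups were grown in GM-CSF, which gives a mixed culture and not a pure cell type, neither the age nor the strain of the 5 mice is in the labels, and the study's methods list wild-type C57BL/6 mice beside transgenic lines. iBET displaces BET proteins from acetylated chromatin, and immune complexes cross-link Fcγ receptors.

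ATF4 is a bZIP transcription factor whose translation increases when eIF2α is phosphorylated by kinases that sense amino acid shortage, misfolded protein, double-stranded RNA or haem deficiency. Its known targets include other transcription factors (Ddit3, which encodes CHOP), feedback regulators (Trib3, Sesn2), enzymes that make serine, glycine, asparagine, proline and cysteine, and many of the synthetases that load amino acids onto tRNA. It binds as a dimer with C/EBP or other bZIP proteins to composite elements in which a C/EBP site and an ATF site lie side by side. Transcript abundance of Atf4 does not measure this step of translation.

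Total counts were between 16447491 and 29245150 per library. Values are given as CPM, reads counted in a gene relative to its library's total, scaled with TMM factors of 0.924 to 1.08. The dendritic cell markers Itgax, Cd74, H2-Ab1, Flt3, Zbtb46 and Batf3 were all measured and summed to 4080 to 8270 CPM over the 20 libraries, although mean Flt3 was 3.03 CPM in DMSO Ova and 0.242 CPM in iBET Ova. The 6 macrophage markers, led by Csf1r, were all measured and summed to 1160 to 1690 CPM with DMSO and to 720 to 1140 CPM with iBET. Neutrophil markers summed to at most 48.7 CPM, with Elane at 0 in every library of 3 groups, and T and B cell markers summed to at most 0.325 CPM. The proliferation genes Mki67 and Top2a summed to 332 to 379 CPM in DMSO Ova and to 205 to 263 CPM in iBET IC. The part of these marker differences in the results was not tested. In a bulk sample, fewer cells of a type and less RNA per cell cannot be told apart.

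Per kilobase of annotated exon, the levels of the 32 genes in DMSO Ova ranged over several orders of magnitude. Atf4 ranked first with a mean of 152.9 CPM per kb, followed by Gars with 67.02, Trib3 with 59.61 and Nars with 53.09 CPM per kb. Among the synthetases the lowest were Cars, with 10.9 CPM per kb, and Tars, with 11.23 CPM per kb. At the bottom of the order stood Cth, Pycr1 and Vldlr, with 0.203, 0.155 and 0.0349 CPM per kb. Their raw counts were 6 to 72 for Cth, 7 to 29 for Pycr1 and 2 to 30 for Vldlr, so counting error alone was large for these 3 genes. Ddit4 (55 to 315 counts) and Stc2 (26 to 102 counts) were also low, while every synthetase had at least 844 counts in every library.

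**Figure D1:**
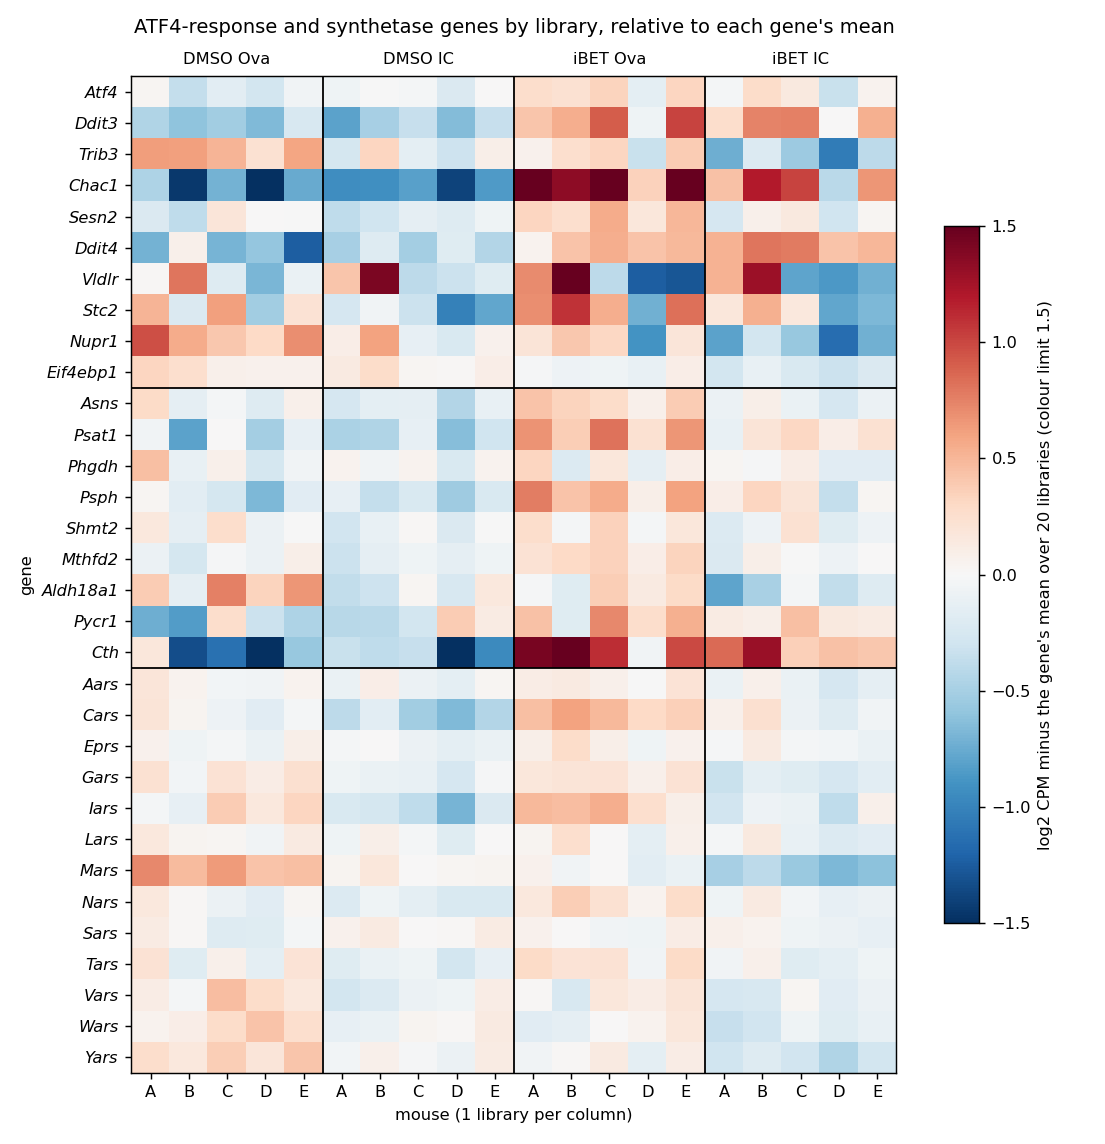
Log2 CPM of the 32 genes (rows) in the 20 libraries (columns, mice A to E within each of the 4 groups), each gene relative to its own mean over all libraries. Colours stop at 1.5 log2 units in either direction. Chac1, Ddit3, Cth and Psat1 are red in most iBET libraries, Mars is red in all 5 DMSO Ova and blue in all 5 iBET IC libraries, and mouse D is the lowest of its group for many genes.

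The promoter windows of the 32 genes were searched for TGATGNAA, the form of the composite element that C/EBP and ATF proteins share, on both strands and with N for any base. RefSeq windows of 300 bases (GRCm38.p6, 250 before and 50 after a start) were found for 25 of the 32 genes, and 11 of these 25 (44.0%) held at least 1 match. Of 9811 tested genes with a window, 2.85% held one, and of all 32851 windows 3.97% did. By role, the match was found in 4 of 9 stress response genes, 2 of 8 enzymes and 5 of 8 synthetases. Positions below count the first transcribed base of the window's RefSeq start as 0, and before and after refer to that start. Of the 12 matches, Chac1, Nupr1, Pycr1, Aars, Vldlr, Asns, Gars and Tars had theirs before the start, with first bases at -193, -110, -103, -112, -200, -23, -30 and -15. Trib3, Yars, Iars and Aars, for its second, had matches after the start, at 14, 3, 7 and 9. By the GENCODE gene positions used elsewhere in the text, the matches of Asns, Nupr1 and Vldlr and the first of Aars lie inside the annotated gene. For these genes another annotated start lies further upstream. These are matches of letters, not shown to be bound. Stretches that lie before the start are given for genes with different calls for iBET against DMSO with Ova. Chac1 (chr2:119351019-119351086, plus strand), Pycr1 (chr11:120643814-120643881, minus strand) and Asns (chr6:7693210-7693262, minus strand) were higher with iBET in that comparison, Nupr1 (chr7:126625543-126625610, minus strand) was lower, and Gars (chr6:55037941-55038000, plus strand) did not pass the test. Sequences run 5′ to 3′ on the strand of the gene, with the match in capitals. On that strand it reads TGATGNAA or its reverse complement.
Chac1: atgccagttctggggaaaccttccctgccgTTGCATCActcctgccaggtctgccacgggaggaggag
Pycr1: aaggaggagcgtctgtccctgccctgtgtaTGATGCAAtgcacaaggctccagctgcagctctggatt
Asns: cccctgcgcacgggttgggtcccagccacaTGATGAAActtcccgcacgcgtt
Nupr1: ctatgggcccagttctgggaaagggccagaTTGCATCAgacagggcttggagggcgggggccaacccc
Gars: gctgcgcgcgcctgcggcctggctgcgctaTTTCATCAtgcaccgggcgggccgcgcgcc

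To see what iBET did to this programme without Fcγ receptor cross-linking, iBET Ova was compared with DMSO Ova. Of the 32 genes, 13 were higher and 5 lower with iBET (edgeR quasi-likelihood test, adjusted p under 0.05 over all tested genes), and 14 did not pass. In the background of all tested genes 27.7% were higher and 28.9% lower, so 13 of 32 lay above and 5 of 32 below the shares found in genes at large. The median log2 fold change of the 32 genes was 0.19, against -0.0029 for all tested genes. Stress response genes and amino acid enzymes carried most of the rises, with medians of 0.43 and 0.33, while the synthetases had a median of 0.06 and moved both ways. In 8 of the 32 genes the 5 iBET libraries did not overlap the 5 DMSO libraries, 6 higher and 2 lower, where 18.5% and 19.5% of all tested genes did the same. Libraries of mice A and B lay apart from those of C, D and E on the second principal component, which held 14.9% of the variance, and the labels name no batch. All 18 genes that passed kept their direction in both sets of mice, and 16 of the 18 moved the same way in each of the 5 mice. The calls came from these same libraries, so this agreement is partly built in and is no separate support. In mice A and B alone Atf4 (adjusted p = 0.0536), Ddit4 (0.125), Nupr1 (0.104), Asns (0.13), Nars (0.271) and Yars (0.0688) did not pass. In mice C, D and E alone Nupr1 (0.101) and Eif4ebp1 (0.565) did not pass.

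Atf4 itself (chr15:80255184-80257541) was at 410, 313, 359, 333 and 388 CPM in DMSO Ova for mice A to E, and at 481, 469, 507, 362 and 500 CPM in iBET Ova. It was higher in every mouse, and the groups overlapped only through mouse D. The log2 fold change was 0.36 ± 0.11 (SE, n = 5 mice per group, adjusted p = 0.0067). In mice A and B alone it was 0.39 and did not pass (adjusted p = 0.0536). Ddit3 (chr10:127290774-127296288), the CHOP gene, was at 40.7, 36.8, 38.8, 35.4 and 47.3 CPM in DMSO Ova and at 74.6, 81.2, 104, 53.5 and 113 CPM in iBET Ova. The groups did not overlap, and the rise was 2.14-fold (log2 fold change 1.10 ± 0.17, adjusted p = 2.18e-05). The last 68 bases of Ddit3 lie within the 3′ end of Mars on the other strand, the strand setting of the counting is not given in the sources used here, and 2 annotated genes carry the Ddit3 symbol, so these counts are uncertain to that extent.

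Chac1 (chr2:119351229-119354381), whose product degrades glutathione, showed the largest change of the 32 genes. It was at 15.7, 7.88, 13.3, 7.56 and 12.8 CPM in DMSO Ova and at 68.5, 55.3, 77.1, 27.6 and 73.0 CPM in iBET Ova. Every iBET library lay above every DMSO library, and mouse D was again the lowest of the treated mice. The rise was 5.26-fold, with a log2 fold change of 2.40 ± 0.29 (adjusted p = 8.91e-07), and it was 2.36 in mice A and B and 2.46 in mice C, D and E. Ddit4 (chr10:59949669-59951834), an inhibitor of mTORC1 also called REDD1, was at 4.11, 7.17, 4.14, 4.52 and 2.82 CPM with DMSO and at 7.03, 9.16, 9.98, 9.14 and 9.54 CPM with iBET. The groups overlapped only in that mouse B with DMSO exceeded mouse A with iBET. Its log2 fold change was 0.98 ± 0.17 (adjusted p = 6.23e-05), with 0.54 in mice A and B, where it did not pass (adjusted p = 0.125), and 1.35 in mice C, D and E. Sesn2, which restrains mTORC1 when leucine is scarce, rose by 0.44 ± 0.11 (adjusted p = 0.00193).

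Not every regulator rose. Nupr1, a small stress-induced chromatin protein, fell by 0.50 ± 0.21 on the log2 scale (adjusted p = 0.0474), and Eif4ebp1, which encodes the translation repressor 4E-BP1, fell by 0.20 ± 0.07 (adjusted p = 0.0161). Both calls were marginal. Nupr1 was lost without mouse A (adjusted p = 0.17), C (0.0608) or E (0.127), and Eif4ebp1 without mouse A (0.0889), B (0.133) or C (0.0601). The log2 fold change of Eif4ebp1 was -0.34 in mice A and B but -0.05 in mice C, D and E (adjusted p = 0.565). Trib3, a pseudokinase that ATF4 and CHOP induce and that feeds back on them, was lower in 5 of 5 mice at a log2 fold change of -0.36 ± 0.15, and missed the threshold with an adjusted p of 0.0509. With the mouse as a block it passed (adjusted p = 2.84e-04), as it did without mouse D (0.0387), and the adjusted p ranged from 2.05e-05 to 0.276 over all alternatives. Stc2, a secreted glycoprotein, and Vldlr, the VLDL receptor, had log2 fold changes of 0.43 ± 0.32 and 0.60 ± 0.72 and did not pass.

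**Figure D2:**
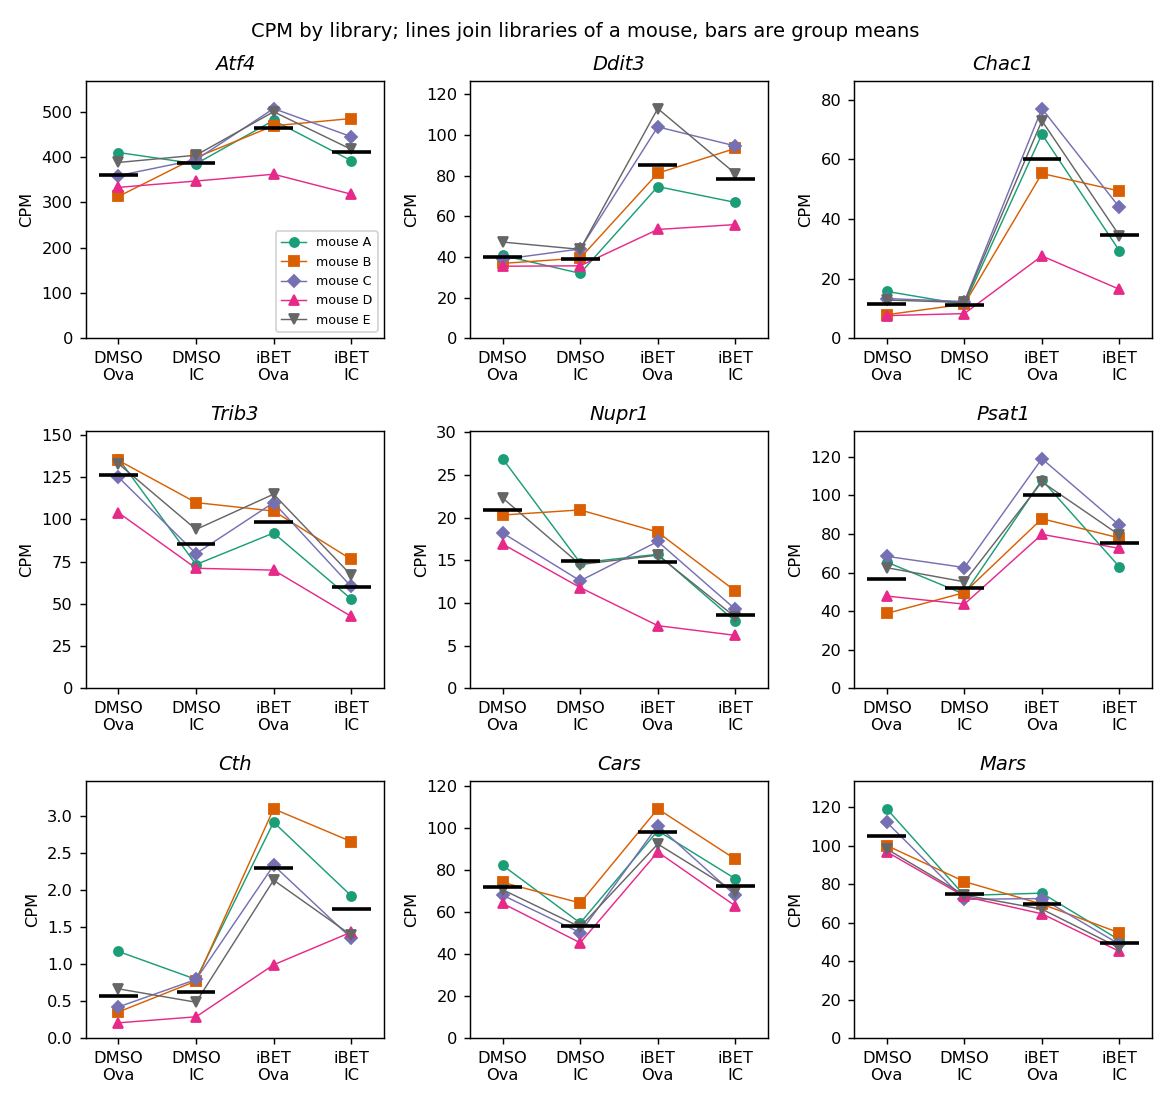
CPM of 9 genes in the 20 libraries, with 1 panel per gene, the 4 groups on the x axis and CPM on the y axis from 0. Points of the same mouse are joined and black bars are means of 5 mice. Chac1 goes from a mean of 11.4 CPM in DMSO Ova to 60.3 CPM in iBET Ova and 34.7 CPM in iBET IC, whereas Mars is lowest in iBET IC in every mouse.

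Among the amino acid enzymes, the serine branch rose unevenly. Psat1 (chr19:15904678-15947337), the aminotransferase of the second step of serine synthesis, was at 65.4, 38.8, 68.4, 47.8 and 62.5 CPM with DMSO and at 108, 87.9, 119, 79.8 and 107 CPM with iBET. Psph (chr5:129765558-129787449), the phosphatase of the last step, was at 13.1, 11.5, 10.7, 7.98 and 11.4 CPM with DMSO and at 22.0, 17.2, 19.0, 13.6 and 19.5 CPM with iBET. In both genes the groups were separate and each mouse rose. The log2 fold changes were 0.83 ± 0.14 (adjusted p = 6.37e-05) for Psat1 and 0.74 ± 0.14 (adjusted p = 1.71e-04) for Psph. Phgdh, which catalyses the first step of the same pathway, did not pass, at 0.02 ± 0.12 with 3 mice higher and 2 lower. The difference between these genes was not tested.

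Cth (chr3:157894248-157925077), the enzyme that releases cysteine from cystathionine, was at 1.17, 0.356, 0.424, 0.21 and 0.667 CPM with DMSO and at 2.91, 3.09, 2.33, 0.991 and 2.13 CPM with iBET. Each mouse rose, although mouse D with iBET stayed below mouse A with DMSO. The rise was 3.97-fold (log2 fold change 1.99 ± 0.39, adjusted p = 2.13e-04), on at most 72 counts per library. Pycr1, which makes proline in mitochondria, rose by 0.82 ± 0.25 (adjusted p = 0.00749) on similarly few counts. Mthfd2, of the mitochondrial one-carbon pathway, rose by 0.33 ± 0.07 (adjusted p = 6.99e-04) with no overlap between groups, and Asns, asparagine synthetase, rose by 0.29 ± 0.09 (adjusted p = 0.0108). Shmt2, which supplies that one-carbon pathway from serine, was at 0.10 ± 0.10 and did not pass. Aldh18a1, which starts proline synthesis from glutamate, was the only enzyme of the 9 with a negative value, at -0.30 ± 0.16. It passed as lower with the mouse as a block (adjusted p = 0.00346, range over alternatives 0.00179 to 0.257).

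The synthetases did not move together. Of the 13 genes, 2 rose, 3 fell and 8 did not pass. Mars (chr10:127296221-127311786), for methionine, was at 119, 100, 112, 96.7 and 98.2 CPM with DMSO and at 75.3, 69.6, 72.5, 64.6 and 67.0 CPM with iBET. All iBET libraries lay below all DMSO libraries, and the log2 fold change of -0.59 ± 0.07 had the smallest adjusted p of the 32 genes (3.6e-07). The 3′ overlap with Ddit3, which moved the opposite way, applies to this gene too. Cars (chr7:143557230-143600090), for cysteine, was at 82.2, 74.1, 68.0, 64.1 and 70.6 CPM with DMSO and at 98.6, 109, 101, 88.5 and 92.3 CPM with iBET, and rose without overlap by 0.45 ± 0.09 (adjusted p = 4.64e-04). Yars (chr4:129189760-129219607), for tyrosine, was at 90.6, 84.3, 97.3, 85.3 and 101 CPM with DMSO and at 73.0, 76.2, 82.8, 68.0 and 81.7 CPM with iBET, and fell without overlap by 0.27 ± 0.07 (adjusted p = 0.00253). Yars and Mars were thus lower in 5 of 5 mice and Cars higher in 5 of 5.

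The other called synthetases changed less. Nars, for asparagine, rose by 0.23 ± 0.07 (adjusted p = 0.00959) and lost the call without mouse C (0.0534). Wars, for tryptophan, fell by 0.24 ± 0.08 (adjusted p = 0.0185) and lost it without mouse B (0.0735), C (0.092) or D (0.0884). The 8 that did not pass had log2 fold changes from -0.15 to 0.22, namely 0.22 for Iars (isoleucine), 0.15 for Tars (threonine), 0.10 for Eprs (glutamate and proline), 0.07 for Aars (alanine), 0.06 for Sars (serine), 0.02 for Gars (glycine), -0.01 for Lars (leucine) and -0.15 for Vars (valine). Their standard errors were at most 0.12. Vars passed as lower with the mouse as a block (adjusted p = 0.0367, range 0.0367 to 0.492), and Iars passed as higher without mouse E (0.0317).

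With immune complexes present, iBET raised 7 and lowered 5 of the 32 genes (iBET IC against DMSO IC), and 20 did not pass. Among all tested genes 27.1% were higher and 29.0% lower. In this fit the share of members higher, 7 of 32, was no larger than that of genes at large. The count depended on the model. With 3 surrogate variables, Atf4 (0.18, adjusted p = 0.0414), Sesn2, Stc2, Asns, Mthfd2, Nars and Tars also passed as higher and Wars as lower. In that fit 4108 of 12465 tested genes were higher and 4357 lower. The libraries did not overlap in 9 genes, 5 higher and 4 lower, against 21.1% and 21.6% of all tested genes. All 7 genes that were higher, Ddit3, Chac1, Ddit4, Psat1, Psph, Cth and Cars, had also been higher with Ova. The median of the 32 genes was 0.07, against -0.0054 for all tested genes.

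Ddit3 was at 31.9, 39.4, 43.9, 35.6 and 43.7 CPM in DMSO IC and at 66.8, 93.4, 94.6, 55.9 and 81.0 CPM in iBET IC. Chac1 was at 11.3, 11.4, 12.3, 8.24 and 12.0 CPM in DMSO IC and at 29.3, 49.4, 43.9, 16.4 and 34.4 CPM in iBET IC. Both were separate between groups, with mouse D the lowest of the treated mice. Ddit3 rose by 1.01 ± 0.17 (adjusted p = 5.72e-05) and Chac1 by 1.65 ± 0.29 (adjusted p = 6.67e-05), that is 2.01-fold and 3.14-fold. Ddit4 went from 4.77, 5.95, 4.76, 5.95 and 4.99 CPM to 9.77, 11.9, 11.7, 9.16 and 9.62 CPM, with a log2 fold change of 0.98 ± 0.17 (adjusted p = 5.38e-05). Atf4 was at 385, 399, 394, 347 and 404 CPM in DMSO IC and at 392, 485, 445, 318 and 417 CPM in iBET IC. The Atf4 libraries overlapped, mouse D was lower with iBET, and the log2 fold change of 0.09 ± 0.11 did not pass (adjusted p = 0.473). Sesn2 (0.16 ± 0.11), Stc2 (0.45 ± 0.33) and Vldlr (-0.15 ± 0.70) did not pass either.

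Of the regulators, 3 were lower with iBET when IC were present. Nupr1 fell by 0.79 ± 0.22 (adjusted p = 0.00394) and Eif4ebp1 by 0.34 ± 0.07 (adjusted p = 1.88e-04), both without overlap between the groups. Trib3 fell by 0.52 ± 0.16 (adjusted p = 0.00802). Each was lower in 5 of 5 mice.

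For the enzymes, Cth was at 0.795, 0.772, 0.793, 0.291 and 0.487 CPM in DMSO IC and at 1.92, 2.65, 1.35, 1.43 and 1.39 CPM in iBET IC, and Psat1 was at 48.8, 49.6, 62.6, 43.6 and 55.2 CPM and then at 62.9, 77.9, 84.5, 72.5 and 79.4 CPM. Both sets of libraries were separate. Cth rose by 1.50 ± 0.39 (adjusted p = 0.00273) and Psat1 by 0.54 ± 0.14 (adjusted p = 0.00352). Psph, at 11.8, 10.0, 10.9, 8.83 and 10.9 CPM and then 13.8, 16.1, 14.7, 10.0 and 13.1 CPM, rose by 0.37 ± 0.14 (adjusted p = 0.0337) with overlap, and lost the call without mouse B (0.143), C (0.103) or E (0.0744). The other 6 enzymes did not pass. Their log2 fold changes were 0.29 ± 0.24 for Pycr1, 0.13 ± 0.09 for Asns, 0.10 ± 0.07 for Mthfd2, 0.06 ± 0.10 for Shmt2, -0.02 ± 0.12 for Phgdh and -0.22 ± 0.16 for Aldh18a1, and the last passed as lower with the mouse as a block (adjusted p = 0.0205, range 0.0205 to 0.439).

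Among the synthetases, Mars, Cars and Yars kept the directions they had with Ova. Mars was at 74.1, 81.3, 72.1, 73.6 and 74.3 CPM in DMSO IC and at 51.0, 54.7, 48.8, 45.1 and 46.9 CPM in iBET IC, a fall of 0.61 ± 0.07 on the log2 scale (adjusted p = 2.77e-07). Cars was at 54.8, 64.3, 50.2, 45.4 and 52.9 CPM and then at 75.8, 85.1, 67.9, 62.9 and 69.5 CPM, a rise of 0.43 ± 0.09 (adjusted p = 6.46e-04). Yars was at 73.3, 79.7, 74.5, 71.2 and 82.1 CPM and then at 61.6, 65.9, 62.0, 55.4 and 62.6 CPM, a fall of 0.31 ± 0.07 (adjusted p = 7.36e-04). The groups were separate for Mars and Yars, and for Cars they overlapped although each mouse rose. The remaining 10 did not pass. Their log2 fold changes were 0.20 (Iars), 0.14 (Nars), 0.08 (Tars), 0.06 (Eprs), -0.03 (Lars), -0.04 (Vars), -0.06 (Aars), -0.09 (Sars), -0.11 (Gars) and -0.19 (Wars). With the mouse as a block, Nars passed as higher (adjusted p = 0.0279, range 7.12e-04 to 0.307) and Wars as lower (adjusted p = 0.00175, range 5.15e-04 to 0.142).

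**Figure D3:**
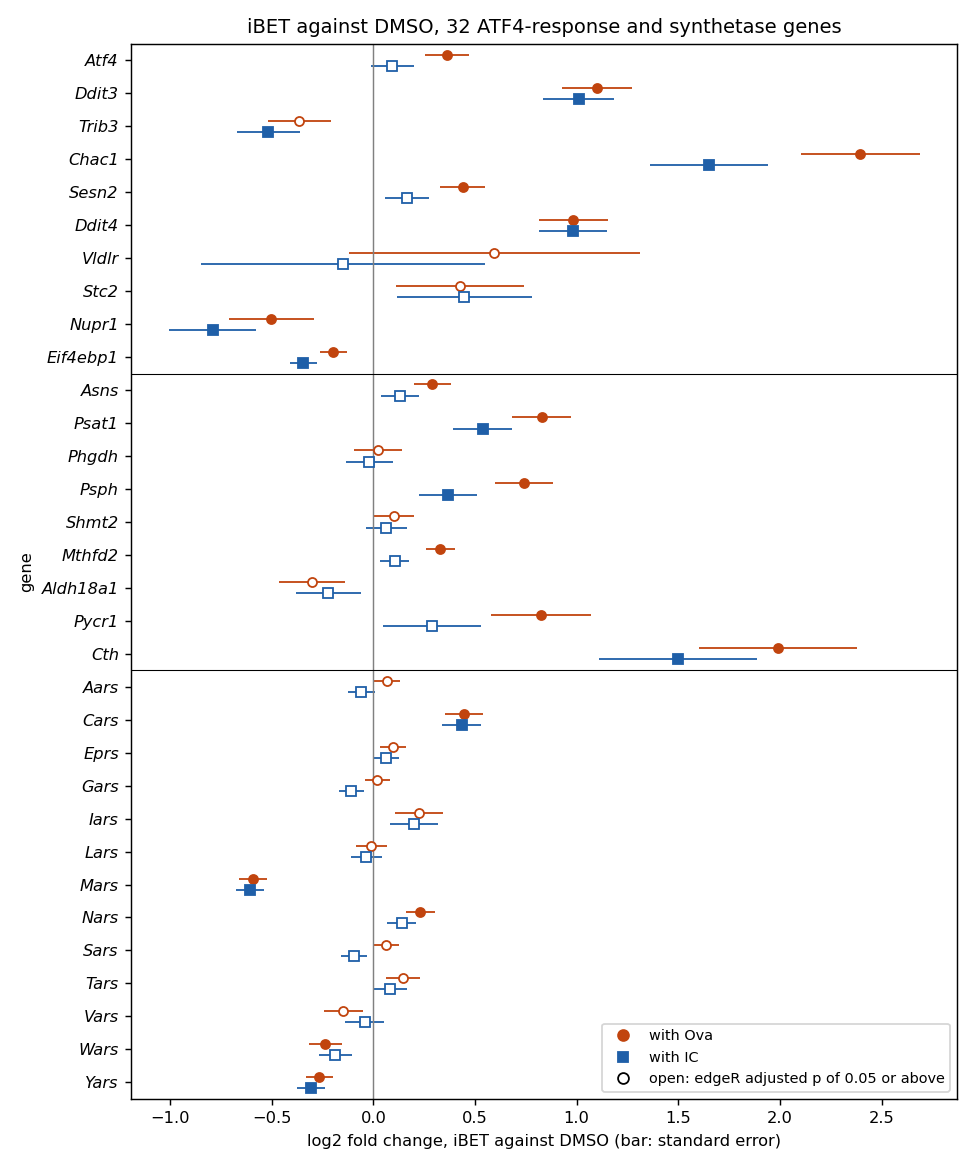
Log2 fold change of iBET against DMSO for the 32 genes, with Ova (orange circles) and with IC (blue squares), from the edgeR fit with 5 mice per group. Bars are standard errors and open symbols have an adjusted p of 0.05 or above. Chac1 lies at 2.40 with Ova and 1.65 with IC, Mars lies at -0.59 and -0.61, and most synthetases lie close to 0.

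Whether the effect of iBET differed between the stimuli was tested as an interaction, the log2 fold change with IC minus that with Ova. It was negative for 28 of the 32 genes, with a median of -0.11 against 0.0020 for all tested genes, but no gene of the 32 passed in edgeR. At an unadjusted p under 0.05 there was 1 (Mthfd2, -0.23 ± 0.10), where 543 of 12465 tested genes had such a p. DESeq2 also called 0 of the 32. The background was low as well, with 0.0401% of all tested genes past the threshold. With the mouse as a block the count stayed at 0 of 32, where 0.818% of all genes passed. In that fit 6 of the 32 genes had an unadjusted p under 0.05, as did 1395 of 12465 tested genes. Single values included -0.74 ± 0.40 for Chac1, -0.37 ± 0.20 for Psph, -0.29 ± 0.20 for Psat1 and -0.27 ± 0.15 for Atf4, each with an adjusted p of 1.0. A smaller effect of iBET with IC than with Ova was therefore not shown for any single gene, and genes that passed with Ova alone cannot be called specific to it.

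Immune complexes were then compared with ovalbumin, first with DMSO. Of the 32 genes, 8 were lower in DMSO IC than in DMSO Ova and 0 were higher, whereas 10.7% of all tested genes were lower and 9.59% higher. No gene of the 32 was higher at an unadjusted p under 0.05 in edgeR or in DESeq2 without the block, where 13 and 14 were lower. Among all tested genes, 4123 of 12465 had such a p in edgeR, in either direction, and 4256 genes had one in DESeq2. The 8 genes were Mars (-0.49 ± 0.07, adjusted p = 5.99e-05), Cars (-0.42 ± 0.09), Gars (-0.26 ± 0.06), Iars (-0.50 ± 0.12), Yars (-0.27 ± 0.07), Vars (-0.30 ± 0.10), Trib3 (-0.56 ± 0.15, adjusted p = 0.0144) and Aldh18a1 (-0.57 ± 0.16, adjusted p = 0.0178). Each was lower in 5 of 5 mice, and 6 of the 8 were synthetases. Mean Trib3 went from 127 ± 13.6 CPM (SD) in DMSO Ova to 85.6 ± 16.3 CPM in DMSO IC. The per-library values of Mars and Cars above put all 5 DMSO IC libraries of Mars below all 5 DMSO Ova libraries, whereas for Cars the 64.3 CPM of mouse B with IC exceeded the 64.1 CPM of mouse D with Ova.

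The count depended on which mice entered the fit and on the block. It fell to 2 without mouse C, to 6 without D and to 7 without A, and to 1 in mice A and B alone, against 10 in mice C, D and E. Lower calls among all tested genes moved too, from 1335 to 612 without mouse C, 759 without D and 1255 without A. They were 224 in mice A and B alone and 1556 in mice C, D and E. Without mouse C, Mars and Cars stayed past the threshold, and the calls lost were Trib3 (adjusted p = 0.093), Aldh18a1 (0.0745), Gars (0.0641), Iars (0.0601), Vars (0.194) and Yars (0.086). Without mouse A, Trib3 (0.0715) and Vars (0.084) were lost, and without mouse D, Aldh18a1 (0.0846) and Vars (0.131). With the mouse as a block 14 genes were lower and 0 higher, where 19.8% and 18.3% of all tested genes were. The 6 added were Stc2 (-0.68), Nupr1 (-0.51), Asns (-0.23), Nars (-0.16), Tars (-0.19) and Wars (-0.23). DESeq2 with the block also called Sars as higher, and its adjusted p ranged from 0.0396 to 0.929 over the alternatives. The direction of genes at large depended on scaling in both comparisons of IC with Ova. With library size in place of TMM, the median of all tested genes moved from -0.02 to -0.13 with DMSO and from -0.01 to -0.12 with iBET, and the numbers of higher and lower genes moved from 1196 and 1335 to 582 and 2593 with DMSO, and from 647 and 827 to 313 and 2030 with iBET. The medians of the synthetases, -0.23 with TMM and -0.34 by library size in the DMSO comparison, lay below those of all genes on both scales. Scaling multiplies all genes of a library alike, so this order could hardly change and is no separate support for the lower synthetase values.

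With iBET present, the same comparison called 12 of the 32 genes as lower and 0 as higher, against 6.63% and 5.19% of all tested genes. At an unadjusted p under 0.05, 19 were lower and 0 higher, and DESeq2 called 17 lower and 0 higher. Among all tested genes, 3312 of 12465 had such a p in either direction, and DESeq2 called 943 lower and 851 higher of 12576. The 12 were Mars (-0.50 ± 0.07, adjusted p = 7.6e-05), Gars (-0.39 ± 0.06, adjusted p = 3.83e-04), Iars (-0.52 ± 0.12), Cars (-0.44 ± 0.09), Yars (-0.31 ± 0.07), Tars (-0.26 ± 0.08), Nars (-0.26 ± 0.07), Nupr1 (-0.78 ± 0.22), Trib3 (-0.72 ± 0.16), Sesn2 (-0.42 ± 0.11), Asns (-0.39 ± 0.09) and Mthfd2 (-0.30 ± 0.07). Each was lower in 5 of 5 mice. The median of the 32 genes was -0.31, against -0.01 for all tested genes. The regulators and the enzymes lay lower here, with medians of -0.37 and -0.37 where they had been at -0.05 and -0.08 with DMSO, but the difference between the comparisons is the interaction above, in which 0 genes passed.

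Chac1, the gene most raised by iBET, was lower with IC among iBET libraries at -0.80 ± 0.28 and lower in 5 of 5 mice, but missed the threshold (adjusted p = 0.066). It passed with the mouse as a block (adjusted p = 0.00112) and without mouse D (0.015), in a range of 3.11e-05 to 0.238. With the block 22 genes were lower and 0 higher, where 14.7% and 14.2% of all tested genes were. Besides Chac1, the block added Stc2 (-0.63), Eif4ebp1 (-0.20), Psat1 (-0.40), Psph (-0.43), Shmt2 (-0.21), Aldh18a1 (-0.49), Aars (-0.20), Vars (-0.19) and Wars (-0.18). The 12 genes of the fit without the block fell to 4 without mouse C, to 7 without E and to 8 without A, and to 1 in mice A and B alone, against 12 in mice C, D and E. Lower calls among all tested genes fell as well, from 827 to 359 without mouse C, 625 without E and 555 without A. They were 115 in mice A and B alone and 621 in mice C, D and E. Without mouse C the calls of Trib3 (adjusted p = 0.0564), Nupr1 (0.111), Asns (0.0656), Mthfd2 (0.0774), Cars (0.0557), Nars (0.127), Tars (0.233) and Yars (0.0584) were lost. Without mouse E those of Sesn2 (0.0632), Nupr1 (0.0922), Asns (0.0503), Nars (0.108) and Tars (0.135) were lost. Without mouse A those of Sesn2 (0.0687), Nupr1 (0.0972), Nars (0.0547) and Tars (0.14) were lost, without mouse B that of Tars (0.0571) and without mouse D that of Sesn2 (0.0653).

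**Figure D4:**
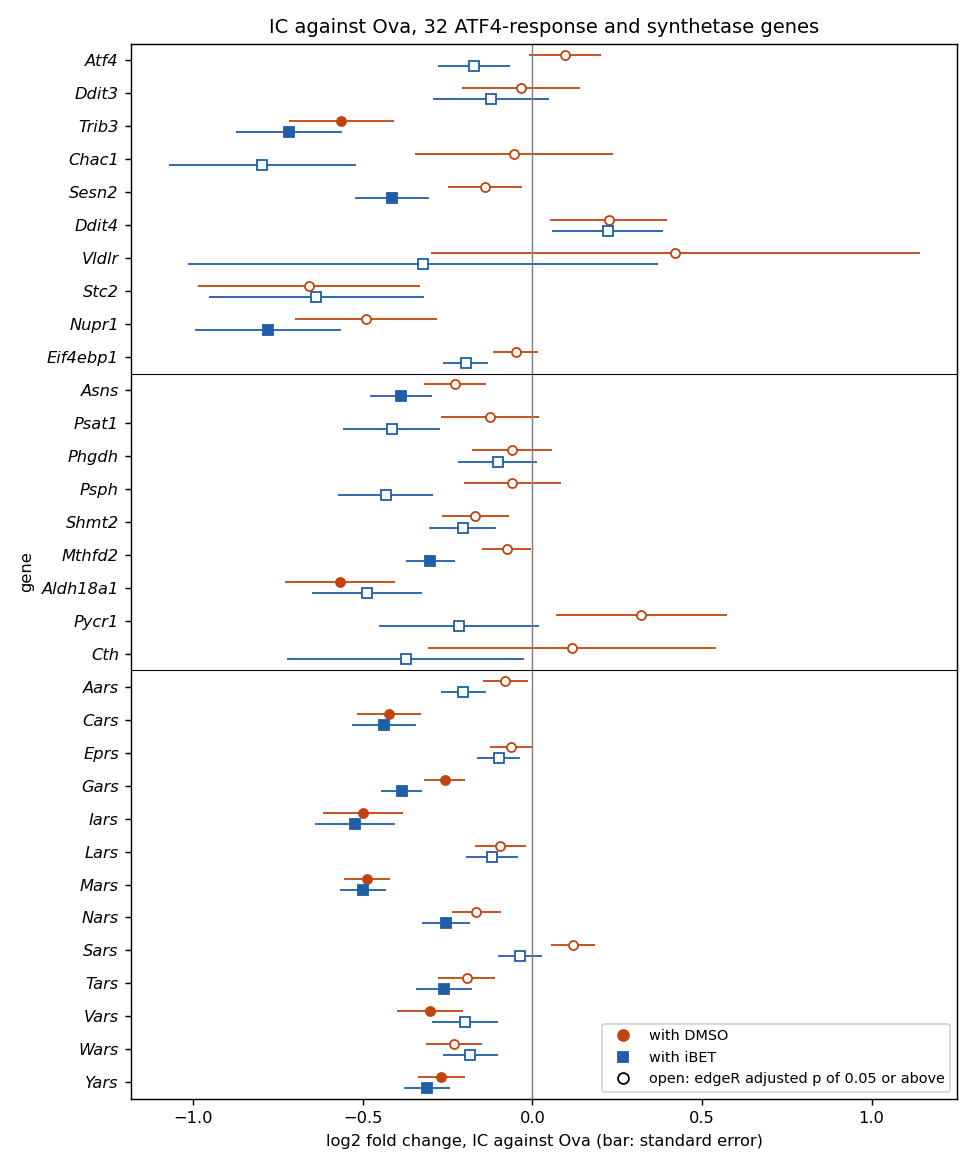
Log2 fold change of IC against Ova for the 32 genes, with DMSO (orange circles) and with iBET (blue squares), from the edgeR fit with 5 mice per group. Bars are standard errors and open symbols have an adjusted p of 0.05 or above. With iBET 31 of the 32 values lie below 0, and with DMSO 26 do.

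The 4 groups share libraries, so the comparisons are not independent, and the values are set side by side here only as levels. Mars was highest in DMSO Ova (105 ± 9.71 CPM, SD, n = 5) and lowest in iBET IC (49.3 ± 3.73 CPM), with DMSO IC (75.1 ± 3.59 CPM) and iBET Ova (69.8 ± 4.27 CPM) between them, and the last 2 ranges overlapped. Cars was highest in iBET Ova (97.9 ± 7.93 CPM) and lowest in DMSO IC (53.5 ± 6.98 CPM), with DMSO Ova (71.8 ± 6.88 CPM) and iBET IC (72.3 ± 8.52 CPM) between them and overlapping. Chac1 was highest in iBET Ova (60.3 ± 20.0 CPM), then in iBET IC (34.7 ± 12.9 CPM), and the DMSO groups (11.4 ± 3.56 and 11.0 ± 1.62 CPM) differed by less than their spread.

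The order of the mice was shared by many of the 32 genes. Mouse D had the lowest CPM of the 5 in 17 of the 32 genes in DMSO Ova, 19 in DMSO IC, 23 in iBET Ova and 20 in iBET IC, whereas it was lowest for 15.0% to 20.1% of all tested genes in these groups. In iBET IC mouse B was the highest for 21 of the 32. The median iBET effect over the 32 genes with Ova was 0.35 in mouse B and between 0.09 and 0.15 in the other 4 mice. The values of 1 gene are therefore not independent of those of the next, and counts over the 32 genes were not tested.

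Genes around this programme that are not among the 32 were described from 7 lists. Their counts are set against the shares of all tested genes, 27.7% higher and 28.9% lower for iBET with Ova and 27.1% and 29.0% with IC. Counts with the mouse as a block have a larger background. Of 12465 tested genes, 4175 were then higher and 4385 lower with Ova, and 4065 and 4408 with IC. No list was tested against other genes, and several counts lie near these shares. Of 16 genes for eIF2, its kinases, the GCN2 regulators Impact and Gcn1l1, the exchange factor eIF2B and the eIF2 phosphatase, 8 were higher and 0 lower with iBET in Ova, with a median log2 fold change of 0.20, and with IC 6 were higher and 1 lower (10 and 1 with the mouse as a block). Impact, an inhibitor of the amino acid sensor GCN2, rose by 0.86 ± 0.16 (adjusted p = 1.59e-04) and Ppp1r15a, the GADD34 subunit that dephosphorylates eIF2α, by 0.60 ± 0.17 (adjusted p = 0.00494) with Ova. The list of 16 bZIP partners and relatives of ATF4 held 4 rises, near the share of all genes, and 8 falls with Ova, and 2 and 7 with IC. Cebpd (1.39 ± 0.12) and Atf6 (0.82 ± 0.08) rose with Ova, whereas Batf3 (-1.75 ± 0.41) and Atf3 (-1.51 ± 0.16) fell. Atf3 is itself a textbook target of ATF4, and its mean went from 76.4 CPM in DMSO Ova to 26.8 CPM in iBET Ova while Atf4 rose.

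Of the amino acid transporters 5 were higher and 4 lower of 13 tested with Ova, with the falls near the share of all genes, and 4 and 6 with IC. Slc7a3, a carrier of arginine and lysine, rose by 2.52 ± 0.44 (adjusted p = 6.73e-05) on at most 77 counts, and Slc1a4, a carrier of alanine, serine and cysteine, by 1.30 ± 0.27 (adjusted p = 3.55e-04). Slc7a11, the cystine importer, fell by 2.08 ± 0.22 on the log2 scale (adjusted p = 1.3e-07), from a mean of 482.5 to 114.4 CPM, and Slc36a1, a lysosomal carrier, fell by 0.68 ± 0.20 (adjusted p = 0.0075). The 18 other enzymes of these pathways included 10 rises and 3 falls with Ova, and 11 and 3 with IC. Prodh, which breaks down proline, rose by 1.64 ± 0.14 and Gclc, the catalytic subunit of glutathione synthesis, by 1.49 ± 0.06, whereas Mthfd2l (-0.59 ± 0.17) and Aldh1l1 (-0.48 ± 0.20) fell. Cystine import and cystathionine cleavage are separate sources of cysteine, and of their genes Slc7a11 fell with iBET and Cth rose, at levels that differed widely in CPM.

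Other cytosolic synthetases and scaffold genes, 11 in all, gave 6 rises and 2 falls with Ova, and 5 and 3 with IC. The 8 calls with Ova became 5 without mouse C, D or E, and the 8 with IC became 5 without mouse E. Calls among all tested genes fell as well. With Ova, 3449 higher and 3608 lower became 3161 and 3080 without mouse C, 3041 and 3171 without D, and 3135 and 3231 without E. With IC, 3378 and 3612 became 3061 and 3260 without mouse E. Tarsl2 (1.15 ± 0.10) and Hars (0.44 ± 0.06) rose, and Dars (-0.39 ± 0.06) and Farsa (-0.27 ± 0.09) fell. The 17 mitochondrial synthetases gave 4 rises and 7 falls with Ova, and 5 and 7 with IC. Nars2 (1.26 ± 0.14) and Mars2 (1.09 ± 0.10) rose and Ears2 (-1.39 ± 0.19) and Tars2 (-1.22 ± 0.10) fell. Mars2, for mitochondrial methionine, thus rose where the cytosolic Mars fell. The 14 other reported targets of ATF4 or CHOP gave 6 rises and 4 falls with Ova, the falls again near the share of all genes, and 5 and 6 with IC (8 and 6 with the mouse as a block). They were led by Gadd45a (1.54 ± 0.13) and Ero1l (0.82 ± 0.20), and by Atf3 and Gdf15 (-0.99 ± 0.21), the last encoding a secreted stress cytokine.

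Of these neighbours, Slc7a11, Gdf15 and Atf3 were higher with immune complexes, where the called genes of the 32 were lower. They were picked after their values were seen. Slc7a11 rose by 1.44 ± 0.22 with DMSO (adjusted p = 1.2e-04) and by 1.86 ± 0.22 with iBET (adjusted p = 1.24e-05) in IC against Ova, Gdf15 rose by 1.54 ± 0.19 and 1.94 ± 0.20, and Atf3 rose by 0.71 ± 0.15 and 0.81 ± 0.15. Over the whole list of 14 other targets 4 were higher and 2 lower with DMSO, where 9.59% and 10.7% of all tested genes were, and 4 and 2 with iBET, where 5.19% and 6.63% were. With the mouse as a block the counts were 6 and 2 in both comparisons.

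**Figure D5:**
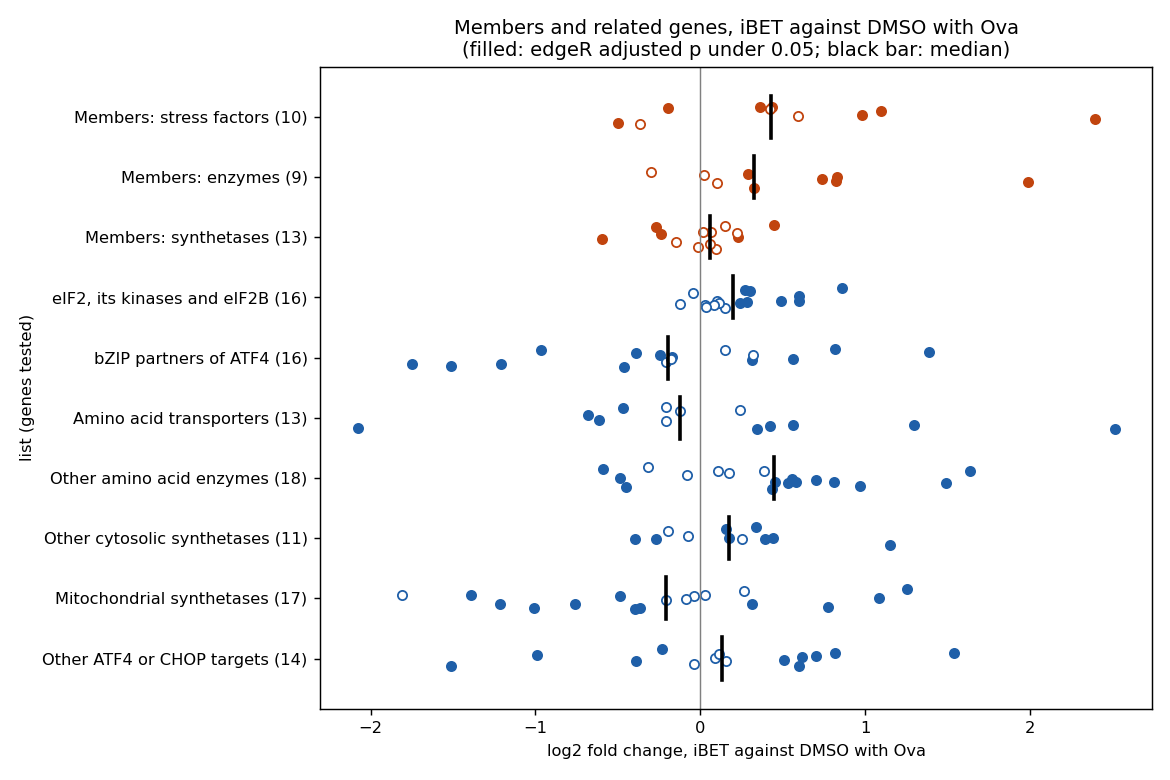
Log2 fold change of iBET against DMSO with Ova for the 32 genes in 3 role groups (orange) and for genes of 7 related lists (blue), with the number tested in brackets. Filled points have an edgeR adjusted p under 0.05 and black bars are medians. The medians of the members run from 0.06 for synthetases to 0.43 for stress response genes, and every related list except that of eIF2 has called genes on both sides of 0.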

How the data were processed

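RNA-seq of BMDCs from 5 mice in each of 4 conditions was used. The authors sequenced a stranded total RNA library, trimmed the reads, aligned them to mm10 with HISAT2, counted them with featureCounts and deposited raw counts per gene. The authors also deposited a table of signal values, the counts divided by DESeq2 size factors (largest relative difference 2.2e-16). The strand setting, annotation and handling of shared reads are not given in the sources used here. The 32 genes and all lists were chosen with earlier results of these data known.

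Genes that passed filterByExpr were scaled by TMM factors. A single edgeR model (edgeR 4.0.16, R 4.3.3, quasi-likelihood) held all 20 libraries and 1 coefficient per group. Benjamini-Hochberg adjustment ran over 12465 genes, and calls needed an adjusted p under 0.05. Errors of fold changes are standard errors and those of CPM are SD. Log2 CPM used a prior count of 2. The fit was tested on simulated counts that held no effect shared by libraries of the same mouse. That test therefore does not cover the sharing of mice between groups here. Libraries of a group differed beyond counting error (chi-square per degree of freedom at least 12.54 in 40 pairs), and p values measure the spread between mice. Each mouse gave a library to every group by its label. Deviations from group means correlated at 0.307 to 0.675 (mean 0.524) between the 30 pairs of libraries of the same mouse. Between the 120 pairs of different mice the range was -0.576 to 0.557 (mean -0.127), and the 2 ranges overlapped. Deviations cancel out within each group, so a positive mean for the same mouse forces a negative mean for different mice. The second mean is therefore no separate contrast.

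All 32 genes are named for iBET against DMSO, and for IC against Ova those that passed with or without the block. Values per library are given for Atf4 and the 3 genes of each role group with the smallest adjusted p for iBET with Ova, and each related list is represented by its 2 largest rises and 2 largest falls past the threshold. Fgf21, Slc43a1, Gldc and Cbs of these lists were not tested for low counts. The lists overlap in Atf3, Cebpb, Ppp1r15a and Gpt2. Gene positions are from GENCODE M21 and promoters from the RefSeq table, in which Mars was matched through a synonym and Eif4ebp1, Cth, Cars, Lars, Nars, Vars and Wars had no entry.

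The fits were repeated with a replicate block for mouse, with DESeq2 1.42.0 (Wald test, block or none), with its size factors or plain library size, with 3 surrogate variables (sva 3.50.0), unfiltered, on the 10 libraries compared, with limma 3.58.1 on log2 of the deposited signal plus 1, leaving out each mouse, and in mice A and B or C, D and E alone.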

Additional observations from a re-analysis of the deposited data

Results flagged for a closer look

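In each group of 5 libraries the lowest and highest CPM of every gene were checked with Dixon's criterion (critical value 0.71), and 9 of 128 groups held a library that stood apart, where chance gives about 1 in 20. In 5 of the 9 it was the lowest and came from mouse D. With iBET Ova, mouse D was at 362 CPM for Atf4 (others 469 to 507 CPM), at 7.34 CPM for Nupr1 (others 15.6 to 18.3 CPM), at 198 CPM for Gars (others 212 to 218 CPM) and at 61.7 CPM for Tars (others 74.1 to 78.4 CPM), and with DMSO IC it was at 8.24 CPM for Chac1 (others 11.3 to 12.3 CPM). Ddit4 in mouse A was at 7.03 CPM with iBET Ova, below the others at 9.14 to 9.98 CPM. With iBET IC, mouse C was highest for Shmt2, at 76.4 CPM against 56.4 to 62.1 CPM, and for Pycr1, at 1.14 CPM against 0.871 to 0.906 CPM. Mars in mouse B was at 81.3 CPM with DMSO IC, above the others at 72.1 to 74.3 CPM.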

How the results depend on the processing

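Of 1594 values of single genes under the alternatives, 1376 kept their direction and side of the threshold, 110 newly passed, 88 no longer passed and 20 changed sign. The causes were not tested. Genes called for iBET with IC numbered 20 instead of 12 with surrogate variables. Those called for IC against Ova with DMSO, 8 in the report, were 14 with the replicate block, 15 with DESeq2 and the block, 14 by library size, 14 with surrogate variables, 2 to 8 with a mouse left out and 1 in mice A and B. Those called with iBET, 12 in the report, were 22, 22, 23, 20, 4 to 13 and 1 in the same order. Lower calls over all tested genes moved as well. With DMSO, 1335 became 2471, 2304, 2593, 2036, 612 to 1255 and 224 in that order. With iBET, 827 became 1835, 1737, 2030, 1611, 359 to 625 and 115. Among the 32 genes the block changed no other call than those given in the report, and it changed calls in the related lists, such as bZIP genes with Ova (6 higher and 10 lower instead of 4 and 8) and other enzymes with Ova (12 and 4 instead of 10 and 3). The block also moved the calls over all tested genes with Ova, from 3449 higher and 3608 lower to 4175 and 4385. Of the related lists, eIF2 genes called for iBET with IC were 11 with the replicate block instead of 7, and other cytosolic synthetases called with Ova were 4 with only the 10 libraries compared and 5 in mice A and B instead of 8, and 5 to 8 with a mouse left out, and with IC 5 to 6 instead of 8. Over all tested genes with Ova, 3161 were higher and 3229 lower with only the 10 libraries compared, and 2669 and 2815 in mice A and B. The fit to the 10 libraries compared was not run for the interaction.

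The values that changed sign were not called in the report. With Ova, Vldlr, at 0.60 in the report, was at -0.0706 with limma, and the others were near 0 in the report, with Phgdh at -0.0313 by library size, -0.12 in mice A and B and -0.0077 to 0.0744 with a mouse left out, Gars at -0.034 by library size, Lars at 0.0115 without the filter, 0.0459 in mice A and B and -0.0406 to 0.0169 with a mouse left out, and Aars at -0.0024 and Sars at -0.0403 in mice A and B. With IC, Phgdh was at 0.0708 with surrogate variables, 0.0217 in mice A and B and -0.0375 to 0.0301 with a mouse left out, Lars at 0.0138 with surrogate variables and 0.0647 in mice A and B, and Aars at 0.0076 and Vars at 0.0117 in mice A and B.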
